A study of Mus musculus with 4 samples.

Results

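The 10 genes described here are WNT-responsive genes that act back on the WNT pathway: Rspo3, Rnf43, Znrf3, Apcdd1, Dkk1, Notum, Axin2, Nkd1, Nkd2 and Lef1. They were chosen by their symbols, with earlier results of these data known. All 10 were found among the 24831 gene rows of the count tables, and all 10 had enough reads to be tested, as did 13602 genes in total. Their transcripts were counted by RNA sequencing of mouse somitic gastruloids, which are clusters of embryonic stem cells that lengthen in culture and lay down presomitic tissue and somites. Both groups were grown from the E14 line with a triple reporter, in which the endogenous Zeb2 gene, a zinc finger repressor, is fused to an HA epitope and to an FKBP12 F36V degron. The dTAG-13 group received 100 nM dTAG-13, a small molecule that sends degron-tagged protein to the proteasome, at 72 h and at 96 h. The titles call the other group untreated, while the protocol gives DMSO as its control. All gastruloids started from 300 sorted cells per well, were given 3 μM CHIR99021 at 48 h, and were moved into 10% Matrigel at 96 h. CHIR99021 inhibits the kinase GSK3 and so switches on WNT signalling inside the cell, which means that both groups received a pathway stimulus at 48 h. Each group held 2 libraries, numbered 1 and 2, and the labels do not say whether these are separate cultures. The p-values therefore reflect the spread between libraries alone, part of which may be technical.

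In canonical WNT signalling, a secreted WNT binds Frizzled and LRP5 or LRP6 at the cell surface, the AXIN and APC destruction complex is held back, and β-catenin enters the nucleus to work with TCF and LEF factors. Many of the genes it turns on damp the pathway again, at the ligand (Notum), at the receptor (Rnf43, Znrf3, Dkk1, Apcdd1) or in the cytoplasm (Axin2, Nkd1, Nkd2), while R-spondins counter RNF43 and ZNRF3. In the mouse embryo this circuit is active in the tail bud and presomitic mesoderm, where WNT activity is known to be highest at the posterior end.

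Upstream sequence is shown for the member of lowest p-value with a window in RefSeq's GRCm38.p6 promoter table, Rnf43, and for the 2 members whose window held a searched motif, Dkk1 and Nkd1. The 250 bases before the most upstream listed start were searched on both strands for the TCF/LEF core (the letters CTTTG followed by AA, AT, TA or TT) and for the E-box known to be bound by ZEB proteins (CACCTG), and capitals mark the matches. The motifs do not overlap each other in these windows.
Rnf43, chr11:87662837-87663086, plus strand: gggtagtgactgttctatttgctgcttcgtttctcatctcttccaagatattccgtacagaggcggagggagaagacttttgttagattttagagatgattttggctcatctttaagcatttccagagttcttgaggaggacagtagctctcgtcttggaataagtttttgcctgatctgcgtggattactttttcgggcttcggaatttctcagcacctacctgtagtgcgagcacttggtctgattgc
Dkk1, chr19:30549497-30549746, minus strand: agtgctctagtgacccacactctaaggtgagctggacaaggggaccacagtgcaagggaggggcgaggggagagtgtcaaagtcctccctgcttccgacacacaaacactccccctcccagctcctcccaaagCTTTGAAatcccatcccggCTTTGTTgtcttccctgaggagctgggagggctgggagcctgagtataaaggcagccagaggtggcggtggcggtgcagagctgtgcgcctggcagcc
Nkd1, chr8:88527383-88527632, plus strand: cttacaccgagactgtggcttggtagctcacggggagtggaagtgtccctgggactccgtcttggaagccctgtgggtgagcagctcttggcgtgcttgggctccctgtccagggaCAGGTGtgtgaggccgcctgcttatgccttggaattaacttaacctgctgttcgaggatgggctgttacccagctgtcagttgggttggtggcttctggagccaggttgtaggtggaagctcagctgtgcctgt
Of the 6 members with a window (Rnf43, Axin2, Nkd1, Nkd2, Dkk1 and Lef1), 1 held a TCF/LEF core, Dkk1, with matches beginning 117 and 98 bases before the start, and 1 held the E-box, Nkd1, on the opposite strand 134 bases before it. Lef1 has 4 listed starts, and the window of 1 of the others held a TCF/LEF core. The listed starts of Nkd1 (88527633) and Axin2 (108920349) lie inside the gene spans given below, which begin at 88521342 and 108917828. The windows of these 2 genes, with the E-box of Nkd1, therefore precede a listed start but lie within the gene span. A TCF/LEF core was found in 14.8% of all 32851 windows of that length and the E-box in 17.2%. A match is a description of letters and not a binding site. GC content ranged from 44.4% in Rnf43 to 69.2% in Axin2, against a median of 52.4% over all windows. The members lie on 7 chromosomes, with 4 of them (Rnf43, Znrf3, Axin2 and Notum) on chromosome 11.

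The libraries held 11491330 to 12716172 reads counted in genes, and the 10 members had 129 to 2234 reads each per library, which alone gives a counting error of 8.80% at the lowest and 2.12% at the highest. Between 24.1% and 35.7% of all reads listed for a library, summary lines included, were assigned to no counted feature, the most in untreated replicate 1. The ribosomal RNA gene Rn28s1 was the most abundant gene in dTAG-13 replicate 1 and untreated replicate 2, with 2.33% and 2.49% of counted reads, and not in the other libraries. Zeb2 itself was at 103 and 108 CPM (depth-normalised counts) with dTAG-13, against 98.3 and 164 CPM untreated, a log2 fold change of -0.32 ± 0.25 (SE). The compound acts on the protein, which was not measured, so this level does not check the labels. All 7 markers of presomitic mesoderm and tail bud were detected, with a summed 202 and 267 CPM with dTAG-13 and 230 and 348 CPM untreated. All 7 somite markers had reads, 6 of them enough to be tested.

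With dTAG-13 the surface and secreted inhibitors Apcdd1, Rnf43 and Dkk1 were higher than in untreated gastruloids. Znrf3 was slightly higher, and Nkd1, Nkd2 and Lef1 were slightly lower, Lef1 mainly in number 2. Rspo3 was higher in number 1 and nearly level in number 2. Axin2 was higher within each number, by 1.35-fold and 1.24-fold, but its groups overlapped, and Notum had no stable sign. The fold changes ran from 2.21-fold higher for Apcdd1 to 1.33-fold lower for Nkd2, and no member passed an adjusted p of 0.05 with the group as the only term of the fit. Across the 13602 genes, 0% passed in the quasi-likelihood test of edgeR, whose smallest adjusted p was 0.760, while 3.52% had an unadjusted p under 0.05. DESeq2 called 39 genes, 0.294% of those it tested, and none of the members. Both dTAG-13 libraries lay above both untreated libraries for 5 of the 10 members (Apcdd1, Rnf43, Znrf3, Dkk1 and Rspo3), against 14.4% of all genes tested. Both lay below for 3 members (Nkd1, Nkd2 and Lef1), against 11.9% of all genes tested. In either direction the groups were apart for 8 members, against 26.2% of all genes. These shares, like the member medians below, do not test the set, because its members were chosen with earlier results of these data known. Of the 10 members, 2 had an unadjusted p under 0.05, Apcdd1 and Rnf43, both higher with dTAG-13. Of all genes, 2.29% had such a p and were higher and 1.23% had such a p and were lower.

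**Figure D1:**
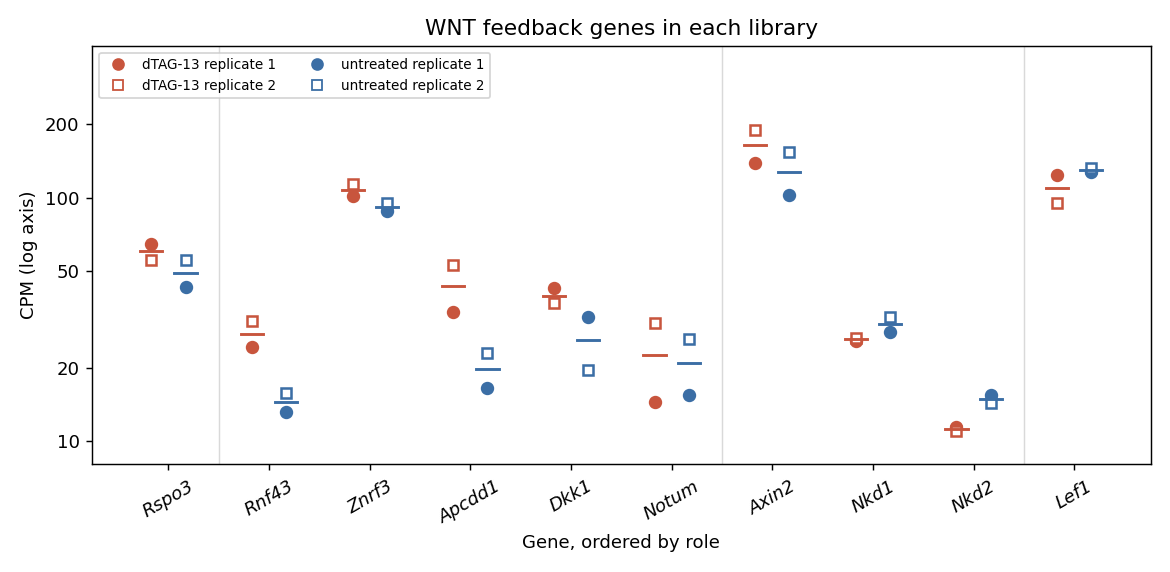
CPM of the 10 WNT feedback genes in each library on a log axis, grouped by role (R-spondin, surface and secreted inhibitors, cytoplasmic inhibitors, nuclear factor); circles are replicate 1, squares replicate 2 and bars group means. Apcdd1 and Rnf43 show the widest gaps between the groups, and Notum and Axin2 show larger gaps between replicate numbers than between groups.

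Among the inhibitors at the cell surface, Apcdd1, a membrane glycoprotein that binds WNT and LRP5 and blocks signalling, had the largest difference. Apcdd1 lies on chromosome 18 (62922327 to 62953815 in GRCm38.p6, the build of all coordinates here). With dTAG-13 it was at 33.8 and 53.1 CPM, and 16.5 and 22.9 CPM were found untreated. The lowest dTAG-13 library stood clear of the highest untreated one. Group means were 43.4 ± 13.6 CPM with dTAG-13 and 19.7 ± 4.504 CPM untreated (SD, n = 2 each). The log2 fold change was 1.14 ± 0.28 (SE; adjusted p = 0.873 by edgeR). It was 2.05-fold higher with dTAG-13 within number 1 (95% exact counting interval 1.73 to 2.43) and 2.32-fold higher within number 2 (2.004 to 2.69). Such intervals describe counting error alone. They can be too narrow even for that, as PCR copies of a molecule are counted like separate molecules. DESeq2 gave an adjusted p of 0.106. The log2 fold change was 0.76 without dTAG-13 replicate 2.

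Rnf43 and Znrf3 are paralogous transmembrane ubiquitin ligases that remove Frizzled receptors from the cell surface, and they differed in size of change. Rnf43 (chromosome 11, 87663087 to 87735539) was at 24.2 and 31.0 CPM with dTAG-13 and at 13.1 and 15.7 CPM untreated, with no overlap between the groups. Its log2 fold change was 0.94 ± 0.22 (adjusted p = 0.790 by edgeR), and it was 1.85-fold higher within number 1 and 1.97-fold higher within number 2. By p-value it ranked 68 among all genes tested, and Apcdd1 ranked 105. Znrf3 (chromosome 11, 5276329 to 5444847) was at 101 and 113 CPM with dTAG-13 and at 87.7 and 95.3 CPM untreated. The groups did not overlap, but the difference was small, 1.16-fold within number 1 and 1.19-fold within number 2, and the log2 fold change was 0.23 ± 0.14 (adjusted p = 1.00 by edgeR), or 0.13 without dTAG-13 replicate 2. Whether the changes of the 2 paralogs differ from each other was not tested.

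Dkk1 and Notum are secreted inhibitors, the first binding LRP5 and LRP6 and the second an esterase that strips the lipid from WNT ligands. Dkk1 (chromosome 19, 30545876 to 30549496) was at 42.3 and 36.8 CPM with dTAG-13 and at 32.4 and 19.5 CPM untreated. All dTAG-13 values were above all untreated values, although the gap between dTAG-13 replicate 2 and untreated replicate 1 was small. The log2 fold change was 0.61 ± 0.26 (adjusted p = 1.00 by edgeR), with a 1.31-fold difference within number 1 and a 1.89-fold difference within number 2. Without untreated replicate 2 it was 0.29, and without untreated replicate 1 it was 1.01. Notum (chromosome 11, 120653788 to 120661193) was at 14.5 and 30.4 CPM with dTAG-13 and at 15.4 and 26.3 CPM untreated. The groups overlapped in full, and the level followed the replicate number instead, being 2.10-fold higher in number 2 with dTAG-13 and 1.71-fold higher in number 2 untreated. Its log2 fold change of 0.11 ± 0.45 had no stable sign. It was -0.54 when dTAG-13 replicate 2 was left out, -0.24 when untreated replicate 1 was, and 0.55 when untreated replicate 2 was. The antisense gene Notumos overlaps Notum in GENCODE M21, and whether reads were counted by strand is not stated in the labels. Genes on the opposite strand also overlap Rnf43, Axin2, Nkd2, Lef1 and Rspo3 there.

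Rspo3, the R-spondin that protects Frizzled by drawing RNF43 and ZNRF3 off the surface, was higher with dTAG-13 in number 1 and nearly level with untreated in number 2. Rspo3 (chromosome 10, 29453106 to 29535867) was at 64.6 and 55.6 CPM with dTAG-13 and at 42.9 and 55.3 CPM untreated. The groups did not overlap, but dTAG-13 replicate 2 and untreated replicate 2 were all but equal. The fold was 1.50 within number 1 (95% exact counting interval 1.35 to 1.68) and 1.01 within number 2 (0.901 to 1.13), and the log2 fold change was 0.29 ± 0.18 (adjusted p = 1.00 by edgeR). It was 0.11 without untreated replicate 1 and 0.49 without untreated replicate 2.

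The cytoplasmic inhibitors did not share a direction. Axin2, the inducible scaffold of the β-catenin destruction complex and a widely used readout of WNT activity, lies on chromosome 11 (108917828 to 108950783). Axin2 was at 138 and 190 CPM with dTAG-13 and at 102 and 153 CPM untreated. Within each number it was higher with dTAG-13, by 1.35-fold in number 1 and 1.24-fold in number 2, but the groups overlapped because number 2 was 1.37-fold above number 1 with dTAG-13 and 1.50-fold above it untreated. The log2 fold change was 0.36 ± 0.25 (adjusted p = 1.00 by edgeR), at 0.08 without untreated replicate 1 and 0.68 without untreated replicate 2. Nkd1 and Nkd2 are paralogs that bind Dishevelled, and both lay below untreated. Nkd1 (chromosome 8, 88521342 to 88594887) was at 25.8 and 26.5 CPM with dTAG-13 and at 28.1 and 32.2 CPM untreated, a log2 fold change of -0.20 ± 0.17 that was -0.10 without untreated replicate 2 and -0.31 without untreated replicate 1. Nkd2 (chromosome 13, 73818534 to 73847631) was at 11.4 and 10.95 CPM with dTAG-13 and at 15.4 and 14.3 CPM untreated, a log2 fold change of -0.41 ± 0.23. Nkd2 was the steadier of the pair, 0.740 of untreated within number 1 and 0.765 within number 2, and neither passed (both adjusted p = 1.00 by edgeR).

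Lef1 is the nuclear member, a DNA-binding partner of β-catenin that WNT signalling itself induces. Lef1 (chromosome 3, 131110297 to 131224357) was at 124 and 95.2 CPM with dTAG-13 and at 127 and 132 CPM untreated. Both dTAG-13 libraries were below both untreated libraries, dTAG-13 replicate 1 only just. The fold within number 1 was 0.973 (95% exact counting interval 0.907 to 1.04) and within number 2 it was 0.720 (0.665 to 0.778). The log2 fold change was -0.24 ± 0.16 (adjusted p = 1.00 by edgeR), and it was -0.09 without dTAG-13 replicate 2 but -0.45 when dTAG-13 replicate 1 was left out.

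**Figure D2:**
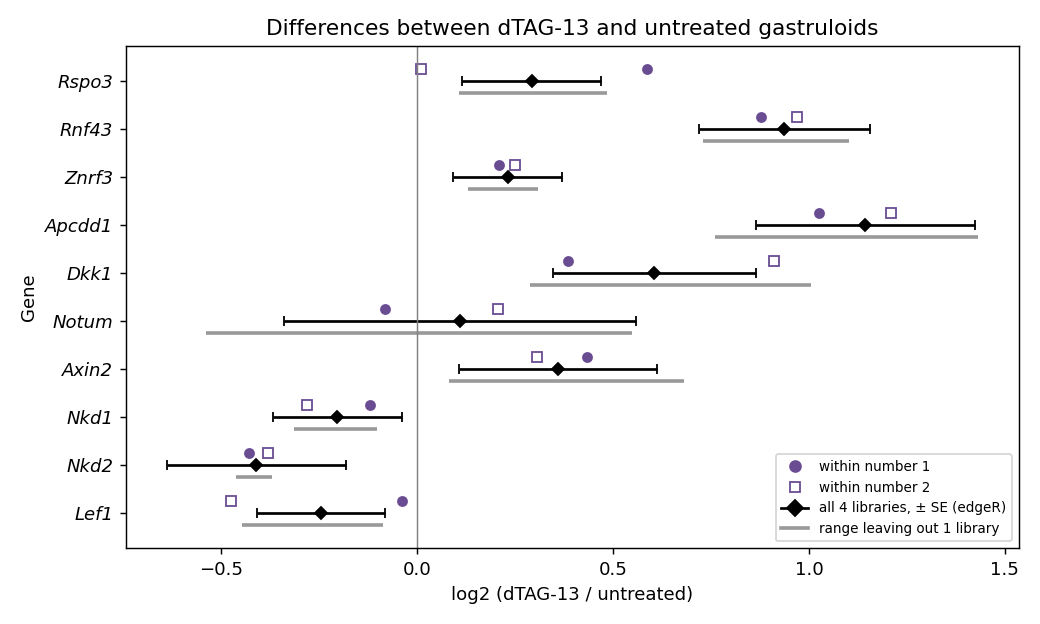
Differences in log2 CPM between dTAG-13 and untreated gastruloids for each member, within replicate number 1 (circles) and number 2 (squares), with the edgeR log2 fold change ± SE over all 4 libraries (diamonds) and its range when 1 library is left out (grey lines). All members but Notum stay on the same side of 0 in every form shown, and the grey line of Notum runs from -0.54 to 0.55.

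Over the 10 members the median log2 fold change was 0.26, against 0.004 over all genes tested. In edgeR 7 members were higher and 3 lower, where 50.9% of all genes tested were higher. Within the numbers, 6 members were higher in both, against 27.7% of all genes, and 3 were lower in both, against 23.9%. Notum was the member of mixed direction. The median of the members was 0.30 within number 1 and 0.23 within number 2. It was 0.11 without dTAG-13 replicate 2 and 0.09 without untreated replicate 1.

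Replicate number moved some members as much as dTAG-13 did. In both groups 6 members were higher in number 2 than in number 1, against 31.4% of all genes tested, and 2 (Nkd2 and Dkk1) were lower in both, against 31.1%. For Axin2 and Notum the mean difference between numbers was larger than the difference between groups. Among other WNT-responsive genes, picked after their values were seen, Sp5 and Cdx1 showed the same layout. Sp5, a transcription factor induced by WNT, was at 15.4 and 36.4 CPM with dTAG-13 and at 12.96 and 34.5 CPM untreated. Cdx1, a caudal-type homeobox gene, was at 3.41 and 29.5 CPM with dTAG-13 and at 3.99 and 29.4 CPM untreated. For both genes the numbers were far apart and the groups were nearly level within each number. Not all genes of that list rose in number 2. Tbx6 was lower there than in number 1, at 7.30 against 10.3 CPM with dTAG-13 and at 13.3 against 19.5 CPM untreated.

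Levels can be compared between members only per length, and for that CPM was divided by the merged exon length of each gene in GENCODE M21, giving RPKM. Axin2 had the highest level in both groups, 29.8 ± 6.58 RPKM with dTAG-13 and 23.2 ± 6.54 RPKM untreated (SD, n = 2 each). Apcdd1 was at 3.37 ± 1.06 RPKM with dTAG-13 and at 1.53 ± 0.350 RPKM untreated, and Nkd2 at 2.32 ± 0.0698 RPKM with dTAG-13 and 3.08 ± 0.164 RPKM untreated. The highest level was 12.8-fold above the lowest with dTAG-13 and 15.2-fold above it untreated. With dTAG-13 the order was Axin2, Rspo3, Dkk1, Znrf3, Lef1, Notum, Nkd1, Rnf43, Apcdd1 and Nkd2, and untreated it was Axin2, Rspo3, Lef1, Znrf3, Dkk1, Notum, Nkd1, Nkd2, Rnf43 and Apcdd1. With dTAG-13, Znrf3 overlapped with Lef1, Lef1 with Notum and Rnf43 with Apcdd1 in these libraries. In the untreated libraries Rspo3 overlapped with Lef1, Znrf3 with Dkk1, Dkk1 with Notum and Notum with Nkd1. Rnf43 and Apcdd1, which had the largest fold changes, were among the 3 lowest members per length in both groups. For Apcdd1 this rank depends on its merged exon length of 12.9 kb, the longest of the members. In CPM its mean with dTAG-13, 43.4, was above that of Dkk1, 39.5. Znrf3 stood at 13.6 RPKM with dTAG-13 and 11.6 RPKM untreated, and its paralog Rnf43 at 4.21 RPKM with dTAG-13 and 2.20 RPKM untreated. The labels do not name the gene models behind the counts, so RPKM is approximate.

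**Figure D3:**
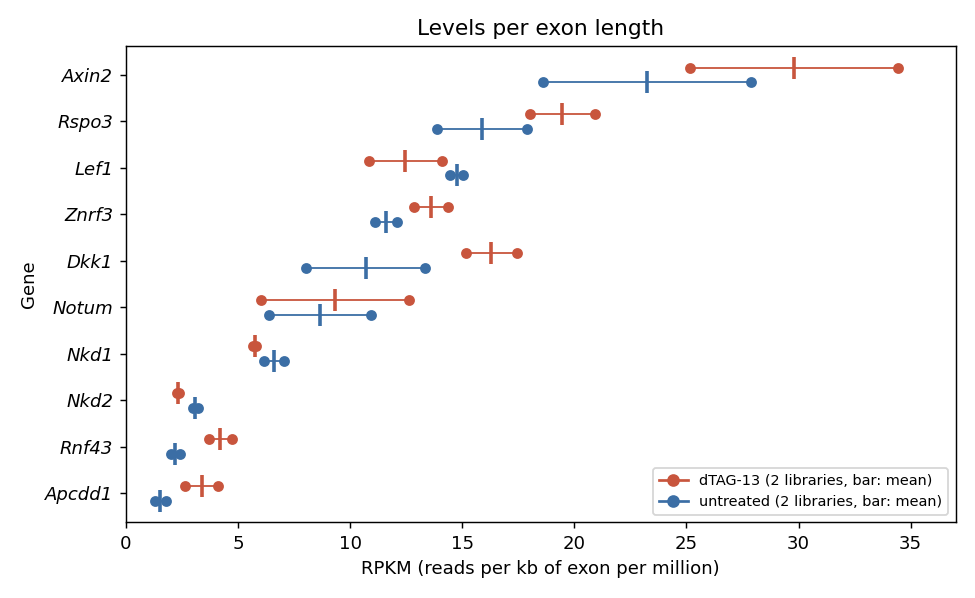
RPKM of each member in the 2 dTAG-13 and the 2 untreated libraries, with bars at group means, ordered by the untreated mean. Axin2 is at the top in both groups, and Rnf43 and Apcdd1, near the bottom, are shifted to the right with dTAG-13.

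The other WNT lists held genes on both sides of 0. No gene of the 7 other WNT lists passed edgeR's threshold, and DESeq2 called 1, the ligand gene Wnt4. Wnt4 was at 11.9 and 13.6 CPM with dTAG-13 and at 3.24 and 2.31 CPM untreated, a log2 fold change of 2.19 ± 0.33 (adjusted p = 0.760 by edgeR and 0.00127 by DESeq2). Of 16 ligand and ligand-secretion genes tested, 9 were higher and 7 lower, with a median of 0.23 that turned to -0.12 without dTAG-13 replicate 2 and to -0.05 among genes with at least 50 counts in 2 libraries, and was 0.05 without untreated replicate 1. Wnt5a, a ligand best known for non-canonical signalling, was at 190 and 160 CPM with dTAG-13 and at 136 and 129 CPM untreated (log2 fold change 0.40 ± 0.14).

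The other R-spondins and LGR receptors had 4 genes tested, 1 higher and 3 lower, with a median of -0.53. It was -0.31 without untreated replicate 2, and with at least 50 counts in 2 libraries, which the scarce Rspo1 and Rspo4 do not reach, it was -0.01. Rspo1 was at 1.45 and 2.46 CPM with dTAG-13 and at 3.99 and 4.18 CPM untreated, while Rspo4 was at 0.427 and 1.36 CPM with dTAG-13 and at 1.28 and 2.49 CPM untreated. Both are scarce beside Rspo3 in read counts, and the groups were apart for Rspo1 and overlapped for Rspo4. Of 15 receptor genes, 8 were higher and 7 lower (median 0.04, between -0.12 and 0.15 with 1 library left out). Lrp5, the co-receptor bound by DKK1 and APCDD1, was at 90.8 and 95.1 CPM with dTAG-13 and at 73.3 and 71.1 CPM untreated, and Fzd3 was at 211 and 170 CPM with dTAG-13 and at 228 and 243 CPM untreated.

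Of 15 other extracellular antagonists, 7 were higher and 8 lower, with a median of -0.04 whose sign depended on which library was left out. It was -0.68 without dTAG-13 replicate 1 and -0.33 without untreated replicate 2, but 0.23 without dTAG-13 replicate 2 and 0.52 without untreated replicate 1. Kremen1, a co-receptor through which DKK1 removes LRP6 from the surface, was at 73.9 and 109 CPM with dTAG-13 and at 61.3 and 63.3 CPM untreated, a log2 fold change of 0.55 ± 0.20. Sost, an LRP-binding inhibitor, was at 1.28 and 7.05 CPM with dTAG-13 and at 3.99 and 15.04 CPM untreated, with overlapping groups. The cytoplasmic relay and destruction complex had the smallest differences of the WNT lists, with a median size of 0.07 on the log2 scale, against 0.13 over all genes tested. Of its 15 genes 12 were higher and 3 lower, with a median of 0.06, between -0.04 and 0.07 with 1 library left out. Its members of smallest p, Dvl1 and Apc2, had log2 fold changes of -0.31 ± 0.21 and -0.46 ± 0.48, and both overlapped between groups.

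Of 13 nuclear partners, 9 were higher and 4 lower (median 0.13, between 0.05 and 0.09 with 1 library left out). Tcf7l1, a TCF factor known mainly as a repressor of WNT targets, was at 76.5 and 79.99 CPM with dTAG-13 and at 56.9 and 58.7 CPM untreated (log2 fold change 0.44 ± 0.13). Pygo1, a co-activator of β-catenin, was at 16.3 and 12.1 CPM with dTAG-13 and at 21.5 and 22.6 CPM untreated (-0.64 ± 0.23). The groups were apart for both genes, in opposite directions. Of 15 other WNT-responsive genes of the posterior embryo, 6 were higher and 9 lower, with a median of -0.01. Leaving out dTAG-13 replicate 2 gave -0.35 and leaving out untreated replicate 1 gave -0.43, whereas 0.14 was obtained when untreated replicate 2 was dropped. Dll1, a NOTCH ligand of the presomitic mesoderm, was at 89.7 and 60.3 CPM with dTAG-13 and at 110 and 127 CPM untreated, and Tbx6, a T-box factor of the same tissue, was at 10.3 and 7.30 CPM with dTAG-13 and at 19.5 and 13.3 CPM untreated.

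**Figure D4:**
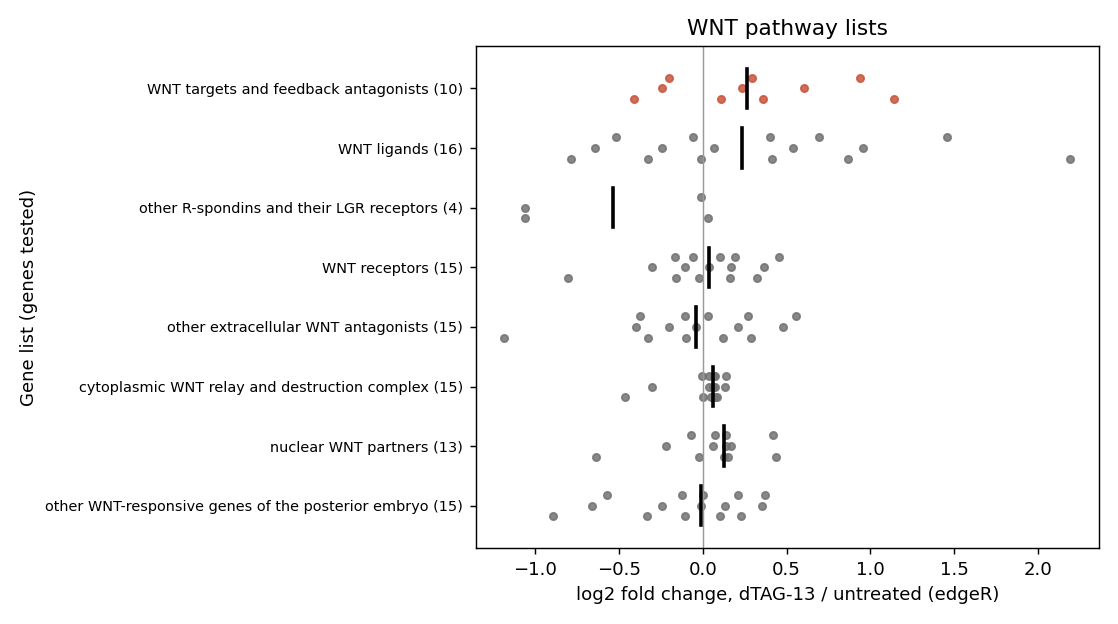
The edgeR log2 fold change (dTAG-13 over untreated) of every tested gene in the 10-member list (red) and in 7 other WNT lists (grey), with black bars at list medians. The members reach from -0.41 to 1.14, the destruction complex genes cluster near 0, and Wnt4 is the point at 2.19.

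Cell type markers differed between the same libraries. All 7 epithelial markers were higher with dTAG-13, 3 of them called by DESeq2, with a summed 921 and 1734 CPM with dTAG-13 and 520 and 738 CPM untreated. All 7 neural progenitor markers were lower, 2 of them called by DESeq2, with a summed 144 and 210 CPM with dTAG-13 and 203 and 391 CPM untreated. All 6 somite markers tested were lower, with a summed 165 and 122 CPM with dTAG-13 and 290 and 211 CPM untreated, and none was called. All 6 gut endoderm markers were higher, 5 of them in both replicate numbers, with a summed 350 and 335 CPM with dTAG-13 and 308 and 239 CPM untreated. All 5 pluripotency markers were higher, and higher in both replicate numbers, with a summed 231 and 381 CPM with dTAG-13 and 192 and 256 CPM untreated. No gene of either list was called by edgeR or DESeq2. The part of these shifts in the values of Apcdd1, Rnf43 and the other members was not tested, and in bulk RNA a change in the number of cells of a type and a change in RNA per cell cannot be told apart. The other marker lists were mixed. Of the 7 presomitic mesoderm and tail bud markers, 3 were higher and 4 lower. Enough reads to be tested were found for 5 of 7 dorsal neural tube, 3 of 5 cardiac, 3 of 5 neural crest and all 5 endothelial markers. Of those tested, 1 dorsal neural tube marker was higher and 4 lower, and 2 cardiac markers were higher and 1 lower. For neural crest 1 was higher and 2 lower, and for endothelium 1 was higher and 4 lower. The untested markers had few reads, and Foxd3, a defining neural crest factor, had 0 reads in every library.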

How the data were processed

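RNA was extracted with a column kit and DNase, depleted of ribosomal RNA and made into libraries with the KAPA RNA HyperPrep kit, per the labels' protocols. The submitters' processing notes list HTSeq 0.12.4, STAR 2.7.6a, DESeq2 1.34.0, fastp 0.20.1 and GRCm38.p6, with no role given. The deposited values are raw counts of reads per gene symbol, 1 table per library, and 5 summary lines in each were left out. Reads of overlapping genes are uncertain, since neither strand setting nor annotation is stated.

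All 4 libraries were fitted in edgeR 4.0.16 (R 4.3.3) with no term but the group: filterByExpr (minimum count 10, minimum total 15), TMM factors, glmQLFit with robust estimation, a two-sided glmQLFTest and Benjamini-Hochberg adjustment over 13602 genes at 0.05. It was tested on simulated data with a smaller spread than these data and no replicate effect, which does not show how it performs here. DESeq2 1.42.0 was the alternative tool. The SE is the size of the log2 fold change over the root of F. CPM uses TMM library sizes, and differences within a number are log2 CPM with a prior count of 2. The biological coefficient of variation was 21.7%. Libraries of a group differed beyond counting noise (chi-square per degree of freedom 32.4 with dTAG-13 and 38.2 untreated), so none was counted as a duplicate. Libraries of opposite groups differed less, from 19.7 for dTAG-13 replicate 1 and untreated replicate 2 to 28.7, and these values do not show whether replicates are separate cultures. Members and lists were chosen with earlier results of these data known. Named genes outside the 10 are Zeb2 and, in each other WNT list, the 2 of smallest p whose average log2 CPM reached 0 and any member of that list called by DESeq2. Sp5, Cdx1, Rn28s1 and Foxd3 fall outside this rule and were chosen after their values were seen. Other scaling factors, filters, a replicate term and leaving out each library were tried.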

Additional observations from a re-analysis of the deposited data

How the results depend on the processing

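No member passed 0.05 in any edgeR fit without a replicate term or in DESeq2, and 9 of the 10 members kept their direction under all 11 alternatives; the exception is Notum, which ranged from -0.54 to 0.55 with 1 library left out, below 0 without dTAG-13 replicate 2 (-0.54) or untreated replicate 1 (-0.24), and the cause was not tested. The count of genes called, 0 with the group alone, was 39 with DESeq2 and 0 with RLE, upper quartile or no scaling factors, no filter, at least 50 counts in 2 libraries, or any library left out. Nothing in the labels says what a replicate number shares, and across genes the deviations of same-numbered libraries correlated at 0.63. With the replicate block edgeR called 636 genes (395 higher, 241 lower), among them 3 members, Apcdd1 (1.13, adjusted p = 9.28e-10), Rnf43 (0.93, adjusted p = 2.67e-05) and Dkk1 (0.64, adjusted p = 0.00222). The median of the members, 0.26, ranged from 0.095 to 0.40 when 1 library was left out. Using total counts in place of scaling factors moved differences within a number by more than their spread in 8 of 20 cases, with no change of sign. At this depth the exact counting intervals included no difference for Nkd1 and Lef1 within number 1, Rspo3 within number 2 and Notum within both.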
